A study of Mus musculus with 16 samples.

Results

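Complement is the plasma protein system that marks and lyses cells, and 9 of its genes in melanoma tumours are described here. They were taken by symbol from a named list, with C1qa, C1qb and C1qc for the C1q made by macrophages and C1ra, C4b, C3, Cfp, C6 and Serping1 for components attributed to stroma. They are 9 of 46078 genes in the table, and all 9 were among the 16101 genes with enough counts to test. RNA was sequenced after transcriptome capture from B16F10-GP tumours, a mouse melanoma cell line grown with Matrigel in the flanks of female C57BL/6 mice aged 6 to 8 weeks. Each of 4 groups had 4 libraries. The group called 5 Gy with QH-II-066 had 1 X-ray dose of 5 Gy to the right flank on day 10, and the drug began that evening. The 5 Gy group had the radiation alone. The QH-II-066 group had the drug alone, and both drug groups were given 10 mg/kg by intraperitoneal injection every day for 7 days from day 10. QH-II-066 is a compound that enhances the GABA-A receptor, a chloride channel opened by the transmitter GABA. The samples of the fourth group are called untreated, while the protocol describes a vehicle control. Neither the flank of a library nor its mouse is given, so the p-values reflect how far the samples of a group differ, and that variation may in part be technical. Whether libraries share a mouse, and whether each library of a radiation group came from the right flank, is not known.

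The complement proteins form a cascade in which each step cleaves or recruits the next, and tumour tissue is known to make some of these proteins locally. C1q, the recognition subunit of the classical pathway, is built from the chains A, B and C, and macrophages are its main source, whereas fibroblasts and other stromal cells are known to make C1r, C1 inhibitor, C3 and C4. Cleaved C4 and C3 coat surfaces, properdin steadies the enzyme of the alternative pathway, and C6 belongs to the terminal complex that forms a membrane pore.

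Total counts ran from 6994198, in 5 Gy with QH-II-066 replicate 4, to 40799942 per library, so that the limit allowed by a count of 0, taken as 3 counts, lay between 0.429 and 0.0735 CPM (read counts scaled to library size, with error of counting only). Melanocyte markers gave the highest mean level of the marker lists in every group. In 5 libraries, 5 Gy replicates 2 and 4 and 5 Gy with QH-II-066 replicates 2, 3 and 4, the markers of skin epithelium averaged 4.02 to 7.62 log2 CPM, against at most -0.41 in the other 11, and values without these libraries are given beside the calls.

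The C1q genes lie side by side on the minus strand of chromosome 4 (mm10): C1qb at chr4:136880129-136886187, C1qc at chr4:136889804-136893065 and C1qa at chr4:136895917-136898803, with 3616 bases between the first pair and 2851 between the second. The whole group spans 18675 bases. Of the 9 genes, 6 had a start-site region in the RefSeq table (GRCm38.p6), which covers 250 bases before to 50 after the start. The regions of C1qb and C1qc are shown because these neighbours had the most alike levels of any pair of members, and that of C3 because it stood furthest apart between 5 Gy and untreated tumours among the abundant members. All are on the minus strand and written 5′ to 3′, C1qb from chr4:136886151-136886450, C1qc from chr4:136892865-136893164 and C3 from chr17:57228087-57228386. Capitals mark motif matches, which C1qb lacks.
C1qb: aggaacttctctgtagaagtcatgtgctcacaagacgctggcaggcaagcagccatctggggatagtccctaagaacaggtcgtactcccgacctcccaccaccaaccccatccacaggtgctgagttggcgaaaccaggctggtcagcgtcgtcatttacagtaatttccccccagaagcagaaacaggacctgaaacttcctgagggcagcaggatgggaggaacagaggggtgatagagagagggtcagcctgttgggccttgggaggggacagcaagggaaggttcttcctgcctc
C1qc: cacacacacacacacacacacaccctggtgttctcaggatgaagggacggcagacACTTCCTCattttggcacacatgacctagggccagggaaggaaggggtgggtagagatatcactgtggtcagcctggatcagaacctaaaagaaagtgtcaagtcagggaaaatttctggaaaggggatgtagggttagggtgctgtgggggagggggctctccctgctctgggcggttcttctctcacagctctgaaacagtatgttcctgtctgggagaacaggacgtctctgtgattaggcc
C3: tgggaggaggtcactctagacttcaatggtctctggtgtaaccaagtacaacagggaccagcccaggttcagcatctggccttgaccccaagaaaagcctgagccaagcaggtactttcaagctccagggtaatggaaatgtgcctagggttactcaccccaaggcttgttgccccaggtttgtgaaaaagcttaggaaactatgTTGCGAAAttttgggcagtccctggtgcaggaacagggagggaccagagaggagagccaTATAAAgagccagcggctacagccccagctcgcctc
Both strands were searched for a PU.1-type ETS motif (GAGGAAGT), a C/EBP motif (TTGCNNAA), a STAT motif (TTCNNNGAA), an interferon-stimulated response element, an NF-kB motif and the TATA box (TATAAA). The capitals in C1qc, ACTTCCTC, are the ETS motif read from the other strand and begin 195 bases before the start, and 3.2% of 32851 start-site regions held that motif. C3 held a C/EBP match, TTGCGAAA, 45 bases before the start, and TATAAA 14 bases after it, motifs found in 10.8% and 13.6% of all regions. C1ra also had a C/EBP match and a STAT match, and the STAT motif was found in 8.3% of all regions. No member's region held the interferon element (3.44% of all regions) or the NF-kB motif (5.56%), and a match describes letters only.

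C1qa, the A chain of C1q, measured 517, 144, 197 and 385 CPM in the 4 tumours given 5 Gy with QH-II-066, 262, 391, 255 and 188 CPM in 5 Gy tumours, 254, 303, 248 and 358 CPM in QH-II-066 tumours, and 110.3, 169, 67.6 and 377 CPM in untreated tumours. The untreated libraries spanned nearly the whole range, and replicate 4 of that group was as high as most treated libraries, so every treated group overlapped it. C1qb, the B chain, measured 441, 142, 199 and 256 CPM with the combined treatment, 267, 401, 245 and 195 CPM after 5 Gy, 203, 309, 262 and 348 CPM after QH-II-066, and 111, 183, 68.9 and 328 CPM in untreated tumours. C1qc, the C chain, measured 288, 98.6, 156 and 212 CPM with the combined treatment, 224, 323, 181 and 161 CPM after 5 Gy, 142, 209.8, 155 and 248 CPM after QH-II-066, and 83.8, 141, 58.4 and 259 CPM in untreated tumours. The same libraries were high and low for all 3 chains: untreated replicate 3 was the lowest library for each, and replicate 1 of the combined group or 5 Gy replicate 2 the highest.

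Mean C1qa was higher in each treated group, 311 ± 172 CPM with the combined treatment, 274 ± 84.7 CPM after 5 Gy and 291 ± 50.9 CPM after QH-II-066, against 181 ± 137 CPM in untreated tumours (SD, n = 4 each), and none of these differences passed the test. The test was edgeR's quasi-likelihood test, two-sided, with Benjamini-Hochberg adjustment over all tested genes and a threshold of 0.05. After 5 Gy against untreated, the log2 fold changes of C1qa, C1qb and C1qc were 0.60 ± 0.46, 0.68 ± 0.42 and 0.71 ± 0.41 (SE), with adjusted p of 0.604, 0.500 and 0.463. The 95% interval of C1qa ran from -0.38 to 1.58, which takes in both 0 and values above 1. After QH-II-066 the 3 chains differed from untreated by 0.68, 0.70 and 0.48, and with the combined treatment by 0.78, 0.59 and 0.48 on the log2 scale. One untreated library moved these values most: without untreated replicate 4 the C1qa difference after 5 Gy was 1.24, and without replicate 3 it was 0.33, and it was called in 0 of the 8 fits that left out 1 library.

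The shares of the chains varied less than their level, though the share of C1qc differed between groups. Per kilobase of counted length, C1qa made up 43.5 ± 3.18% of the 3 chains, C1qb 39.7 ± 2.33% and C1qc 16.8 ± 1.65% (SD over the 16 libraries). C1qc made up 14.3 to 16.2% after QH-II-066, below 16.8 to 19.1% in untreated tumours and 16.6 to 18.9% after 5 Gy. With the combined treatment it made up 14.2 to 17.9%, and the shares were not tested between groups. The share of C1qa was highest in the shallowest library, 5 Gy with QH-II-066 replicate 4, at 51.7%, and lowest in untreated replicate 2, at 40.1%. Their sum per kilobase ranged more than the shares did, 320 to 1051 CPM per kilobase with the combined treatment, 443 to 912 after 5 Gy, 504 to 792 after QH-II-066 and 159 to 798 in untreated tumours. Of all pairs of members, C1qb and C1qc had the most alike profiles over the 16 libraries, with a root mean square (RMS) difference of 0.142 between centred log2 CPM, followed by C1qa with C1qb at 0.178 and C1qa with C1qc at 0.220.

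**Figure D1:**
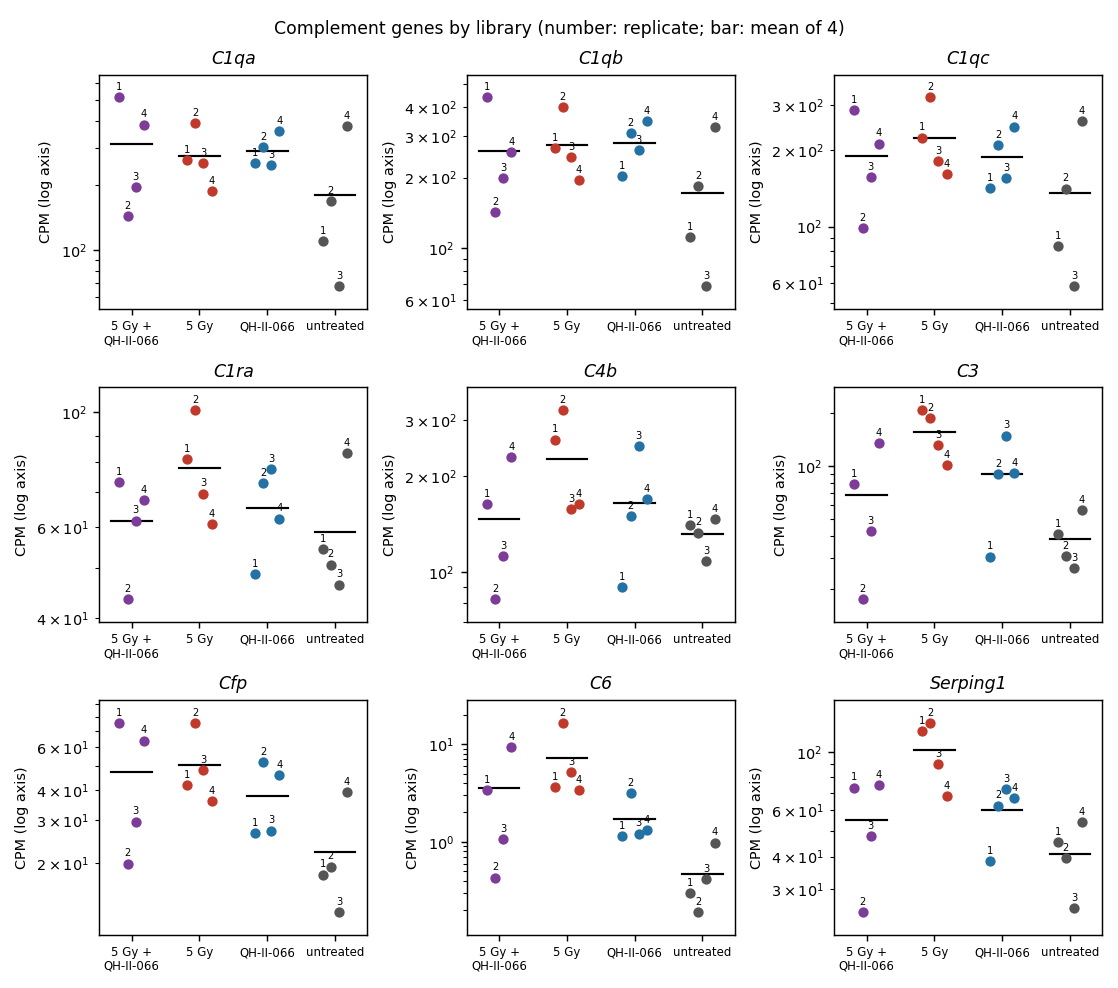
CPM of each complement gene in every library, on a log axis, with libraries numbered by replicate and a bar at the mean of the 4 libraries of a group (5 Gy with QH-II-066, 5 Gy, QH-II-066, untreated). The 4 libraries of the 5 Gy group lie above the 4 untreated libraries for C4b, C3, C6 and Serping1, while the groups overlap for the C1q chains, C1ra and Cfp.

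The macrophage list, with 16 of 16 genes tested, is given beside the C1q chains. Its mean level lay between 4.74 and 5.76 log2 CPM with the combined treatment, 5.48 and 6.39 after 5 Gy, 4.63 and 5.53 after QH-II-066, and 4.08 and 5.05 in untreated tumours. All 16 genes were above 0 in log2 fold change after 5 Gy against untreated, and 4 passed the test. Of all tested genes 38.2% were above 0 there, and 1.25% were called higher. The mean of the C1q chains stood above that list by 2.24 to 2.90 log2 units with the combined treatment, by 2.01 to 2.21 after 5 Gy, by 2.55 to 2.97 after QH-II-066 and by 1.94 to 3.26 in untreated tumours. Relative to the macrophage list, C1q was thus lower in the 4 libraries of the 5 Gy group than in the 4 of the QH-II-066 group, and untreated tumours covered both. In bulk RNA, fewer cells of a type and less RNA per cell cannot be told apart, and the part of macrophage number in these values was not tested.

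By RMS difference over the 16 libraries, the 5 genes most like the mean C1q profile were Ly86 (0.139), Fcer1g (0.165), Ctss (0.168), Ly6e (0.182) and AB124611 (0.198), where the C1q profile itself had an SD of 0.678. Ly86 encodes a partner of the receptor RP105, Fcer1g the signalling chain of Fc receptors, and Ctss, the protease cathepsin S, is also on the macrophage list.

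C1ra, on chromosome 6, encodes C1r, the protease that C1q sets in action to cleave C1s. It measured 73.2, 43.5, 61.7 and 67.6 CPM with the combined treatment, 81.2, 101, 69.6 and 60.8 CPM after 5 Gy, 48.6, 73.0, 77.6 and 62.3 CPM after QH-II-066, and 54.3, 50.7, 46.4 and 83.3 CPM in untreated tumours. It was the steadiest member, with a range of 1.21 log2 units over the 16 libraries, and all groups overlapped. The log2 fold change after 5 Gy was 0.41 ± 0.22 (adjusted p = 0.405, edgeR), and the differences of the other treated groups from untreated were 0.15 after QH-II-066 and 0.07 with the combined treatment. Counts of C1ra may include reads of the near-identical copy C1rb.

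C4b, on chromosome 17, encodes C4, which C1s cleaves to start the C3 convertase. It measured 163, 82.4, 113 and 229.7 CPM with the combined treatment, 261, 323, 158 and 163 CPM after 5 Gy, 89.8, 151, 249 and 169.6 CPM after QH-II-066, and 141, 133, 108 and 147 CPM in untreated tumours. The 5 Gy libraries were all above the untreated ones, by a narrow margin for replicates 3 and 4. The log2 fold change was 0.78 ± 0.33 and did not pass the test (adjusted p = 0.269, edgeR). C4b shares most of its sequence with C4a, so the counts of both are uncertain.

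C3, on chromosome 17, encodes the protein on which all complement pathways meet. It measured 78.4, 17.5, 42.5 and 134 CPM with the combined treatment, 207, 188, 131 and 101 CPM after 5 Gy, 30.4, 89.8, 148 and 90.5 CPM after QH-II-066, and 40.7, 30.7, 26.1 and 56.2 CPM in untreated tumours. Every 5 Gy library was above every untreated one, and 3 of the 4 QH-II-066 libraries were too, while the combined group held the lowest library of all 16. After 5 Gy the log2 fold change from untreated was 2.03 ± 0.54, with an interval of 0.88 to 3.17, and it missed the threshold at an adjusted p of 0.0664 in edgeR. DESeq2 on the same counts called C3 (adjusted p = 0.00206), as did edgeR on the 5 Gy and untreated libraries alone (adjusted p = 0.0284). Without the libraries with skin transcripts the value was 2.14 (adjusted p = 0.165). After QH-II-066 C3 differed from untreated by 1.22 ± 0.53 (adjusted p = 0.546) and with the combined treatment by 0.82 ± 0.52 (adjusted p = 0.386).

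Cfp, on the X chromosome, encodes properdin. It measured 75.3, 19.9, 29.5 and 63.7 CPM with the combined treatment, 41.9, 75.3, 48.3 and 35.8 CPM after 5 Gy, 26.5, 51.8, 27.1 and 45.9 CPM after QH-II-066, and 17.9, 19.3, 12.6 and 39.1 CPM in untreated tumours. Untreated replicate 4, the highest of its group as for C1q, overlapped each treated group. The log2 fold changes from untreated were 1.18 ± 0.43 after 5 Gy (adjusted p = 0.168), 0.77 ± 0.42 after QH-II-066 (adjusted p = 0.546) and 1.08 ± 0.43 with the combined treatment (adjusted p = 0.298), all from edgeR. After the pairs of C1q chains, the most alike pair of members was C1qc with Cfp, at an RMS difference of 0.291.

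C6, on chromosome 15, was the 1 member that passed the test, and also the rarest. It measured 3.35, 0.431, 1.07 and 9.23 CPM with the combined treatment, 3.63, 16.5, 5.16 and 3.36 CPM after 5 Gy, 1.15, 3.17, 1.21 and 1.33 CPM after QH-II-066, and 0.301, 0.192, 0.416 and 0.985 CPM in untreated tumours. The 5 Gy values rest on 102, 525, 153 and 99 counts, and the untreated values on 9, 5, 13 and 28. All 5 Gy and all QH-II-066 libraries were above all untreated ones, whereas 1 library of the combined group was within the untreated range. C6 rose after 5 Gy by 3.90 ± 0.88 log2 units against untreated (adjusted p = 0.0429, edgeR), with a 95% interval of 2.04 to 5.77. The call was lost in 6 of 8 fits that left out 1 library, over which the value ran from 3.09 without 5 Gy replicate 2 to 4.53 without untreated replicate 4. Without the libraries with skin transcripts it was 3.20 ± 0.59 (adjusted p = 0.0896), and the call was lost too with no filter, with a replicate block and with skin or muscle markers as a covariate (3.21 to 3.97, adjusted p of 0.0580 to 0.195). The difference from untreated was 1.85 ± 0.83 after QH-II-066 (adjusted p = 0.546) and 2.82 ± 0.86 with the combined treatment (adjusted p = 0.298), which DESeq2 called (2.90, adjusted p = 0.0267). The combined value was 1.77 without replicate 4 of that group, the shallowest library, with 62 counts of C6 and with skin transcripts. Without all libraries with skin transcripts, which leaves 1 combined library, it was 2.82 (adjusted p = 0.280, edgeR).

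Serping1, on chromosome 2, encodes C1 inhibitor, which inactivates C1r and C1s. It measured 73.0, 24.7, 47.8 and 74.9 CPM with the combined treatment, 120.0, 129, 89.7 and 67.8 CPM after 5 Gy, 38.4, 62.4, 72.1 and 66.6 CPM after QH-II-066, and 45.3, 39.5, 25.5 and 53.9 CPM in untreated tumours. Every 5 Gy library was above every untreated one, and the combined group overlapped both. The log2 fold change after 5 Gy was 1.31 ± 0.33 and missed the threshold at an adjusted p of 0.0579 in edgeR. DESeq2 called it (adjusted p = 0.00269), and so did edgeR without 5 Gy replicate 3 (adjusted p = 0.0443), 1 of the 8 fits that left out 1 library. Without the libraries with skin transcripts the value was 1.35 (adjusted p = 0.145, edgeR).

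By this test, 1 of the 9 genes rose after 5 Gy against untreated, where 1.25% of all tested genes did, and 4 of 9 had every 5 Gy library above every untreated one, where 5.97% of all tested genes did. The median log2 fold change of the 9 was 0.78, and it was -0.08 over all tested genes. All 9 were above 0, as were 38.2% of all tested genes, and 5 had an unadjusted p under 0.05, as had 15.1% of all tested genes. DESeq2 called 3 of the 9 higher (C3, C6 and Serping1), where it called 7.34% of the genes to which it gave an adjusted p. For QH-II-066 against untreated, edgeR called 0 of 9, where it called 0% of all genes, and DESeq2 called 0 of 9, where it called 0.0995%. There 2 of 9 had an unadjusted p under 0.05 in edgeR, as had 8.17% of all tested genes. In that comparison 1 of 9, C6, had every drug library above every untreated one, where 1.37% of all tested genes had. For 5 Gy with QH-II-066 against untreated, edgeR again called 0 of 9 and 0% of all genes, and DESeq2 called 1 of 9 higher (C6), where it called 1.2% of genes. An unadjusted p under 0.05 in edgeR was found for 2 of 9 and for 16.2% of all tested genes, and 0 of 9 stood wholly above untreated, where 2.53% of all tested genes did. These 3 comparisons share the untreated libraries.

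**Figure D2:**
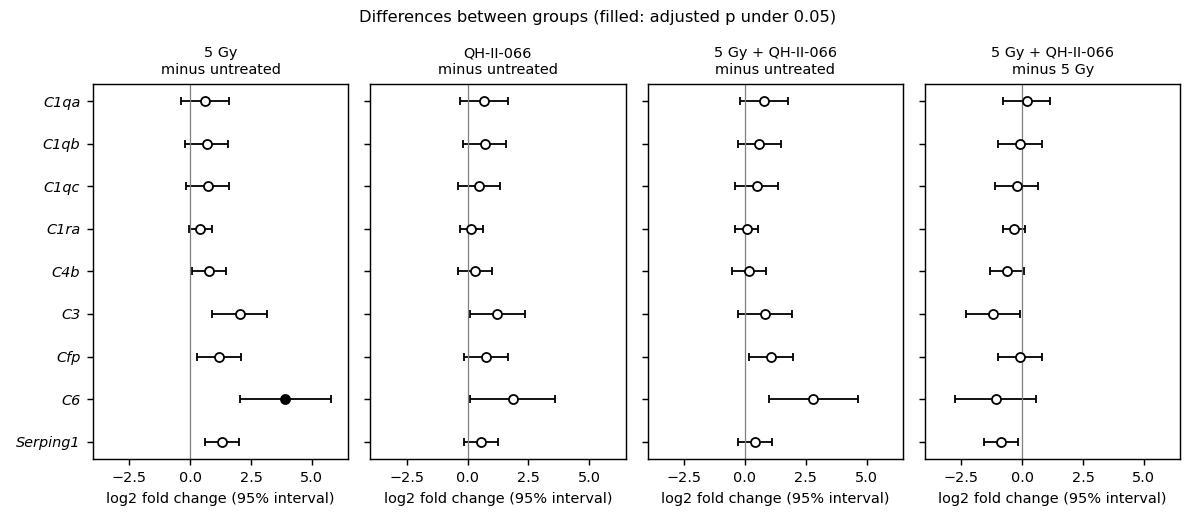
Log2 fold change of each complement gene with its 95% interval in edgeR, for 5 Gy, QH-II-066 and 5 Gy with QH-II-066 against untreated and for 5 Gy with QH-II-066 against 5 Gy; a filled point has an adjusted p under 0.05. C6 after 5 Gy, at 3.90, is the filled point. In the comparison of the combined treatment with 5 Gy, 8 of 9 points lie below 0, where 44.3% of all tested genes were above 0.

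In tumours given 5 Gy with QH-II-066, 8 of the 9 members had a lower fitted level than in tumours given 5 Gy alone. None passed the test, and 44.3% of all tested genes were above 0. C3 averaged 68.1 ± 50.6 CPM with the combined treatment and 157 ± 49.5 CPM after 5 Gy (SD, n = 4 each), a log2 difference of -1.21 ± 0.53 (adjusted p = 0.234, edgeR). Serping1 averaged 55.1 ± 23.7 CPM with the combined treatment and 102 ± 28.0 CPM after 5 Gy, a difference of -0.89 ± 0.33 (adjusted p = 0.210), and C4b differed by -0.63 ± 0.33 (adjusted p = 0.287). C1ra differed by -0.35 ± 0.22. C6 differed by -1.09 ± 0.78, and that value was -2.13 without replicate 4 of the combined group and -0.25 without 5 Gy replicate 2. The C1q chains and Cfp were nearer 0, C1qa at 0.18, C1qb at -0.09, C1qc at -0.24 and Cfp at -0.10. The median of the 9 was -0.35, where all tested genes had -0.06. Of the fibroblast marker list 0 of 15 genes were above 0 in this comparison, with a median of -0.87. Of the macrophage list 3 of 16 were, with a median of -0.43, and the part of these cells was not tested. Both groups overlapped for all 9 genes, while 8.42% of all tested genes did not overlap. The edgeR test called 0 of 9 and 0% of all genes, and DESeq2 called 0 of 9 and 0.765% of genes. An unadjusted p under 0.05 in edgeR was found for 2 of 9 and for 19.5% of all tested genes.

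Against QH-II-066 alone, the combined treatment differed by -0.41 for C3 to 0.97 for C6, with a median of -0.09. All 9 genes overlapped, where 1.91% of all tested genes did not, edgeR called 0 of 9 and 0% of all genes, and DESeq2 called 0 of 9 and 0.298% of genes. An unadjusted p under 0.05 was found for 0 of 9 and for 3.65% of all tested genes. The interaction, which is the difference that the drug made after 5 Gy minus the difference it made without radiation, was below 0 for all 9 genes, while 54.5% of all tested genes were above 0. It was largest in size for C6 (-2.93 ± 1.14) and C3 (-2.44 ± 0.74, adjusted p = 0.484), followed by Serping1 (-1.43 ± 0.46, adjusted p = 0.500), and smallest for C1qa and C1ra at -0.50. The edgeR test called 0 of 9 and 0% of all genes, DESeq2 called 0 of 9 and 0.367% of genes, and 3 of 9 had an unadjusted p under 0.05, as had 6.96% of all tested genes. For the interaction 1 of 15 fibroblast genes and 1 of 16 macrophage genes were above 0, with medians of -1.71 and -0.86. The part of these cells in the interaction was not tested.

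Per kilobase of counted length, C1qa and C1qb were the most abundant members in every group, at 299 and 239 CPM per kilobase with the combined treatment, 263 and 255 after 5 Gy, 279.6 and 258 after QH-II-066, and 174 and 159 in untreated tumours, followed by C1qc. In the combined group came next Cfp (27.1 ± 15.3), C4b (25.8 ± 11.3), Serping1 (23.7 ± 10.2) and C1ra (22.4 ± 4.67), then C3 (13.2 ± 9.84) and C6 (0.873 ± 0.993). After 5 Gy the order went on with Serping1 (43.7 ± 12.1), C4b (39.8 ± 14.1), C3 (30.4 ± 9.62), Cfp (29.0 ± 10.0) and C1ra (28.4 ± 6.31), and ended with C6 (1.77 ± 1.55). After QH-II-066 it went on with C4b (28.9 ± 11.5), Serping1 (25.7 ± 6.38), C1ra (23.8 ± 4.68), Cfp (21.8 ± 7.47) and C3 (17.5 ± 9.37), and ended with C6 (0.425 ± 0.241). In untreated tumours it went on with C4b (23.2 ± 2.98), C1ra (21.3 ± 6.08), Serping1 (17.7 ± 5.14), Cfp (12.8 ± 6.70) and C3 (7.47 ± 2.60), and ended with C6 (0.117 ± 0.0875). The values are means ± SD of 4 libraries, and the neighbours between C1qc and C6 differed by less than the larger SD of the pair in each group. C3 was above Cfp and C1ra after 5 Gy and below both in untreated tumours.

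The fibroblast list, with 15 of 15 genes tested, was also higher after 5 Gy than in untreated tumours, at a median log2 fold change of 2.33. Its mean level lay between 4.37 and 5.98 log2 CPM with the combined treatment and between 5.92 and 6.72 after 5 Gy. It lay between 4.38 and 5.44 after QH-II-066 and between 3.60 and 4.78 in untreated tumours. Of its 15 genes 10 rose after 5 Gy, where 1.25% of all tested genes did. C3 stood above that list by 0.74 to 1.18 log2 units after 5 Gy and by 0.94 to 1.34 in untreated tumours, which overlap. After QH-II-066 it lay 0.55 to 2.14 above the list, highest in replicate 3, which also had the highest adipocyte level, 6.06 log2 CPM. With the combined treatment the value ran from -0.24 to 1.14. The adipocyte list lay between 2.86 and 4.66 log2 CPM after 5 Gy and between -1.28 and 2.59 in untreated tumours. It lay between 0.37 and 6.06 after QH-II-066 and between 0.16 and 3.64 with the combined treatment. The part of adipocytes in the C3 values was not tested. C4b stood above the fibroblast list by 1.34 to 1.62 after 5 Gy and by 2.42 to 3.46 in untreated tumours. Serping1 did so by 0.17 to 0.53 after 5 Gy and 0.90 to 1.70 in untreated tumours. C1ra stood at -0.17 to 0.16 after 5 Gy and 1.45 to 2.06 in untreated tumours. Relative to the fibroblast list, these 3 genes were thus lower in all 5 Gy libraries than in all untreated ones. The part of fibroblast number in the complement values was not tested. The liver is the main source of plasma complement, and of the defining markers of hepatocytes Fga and Serpina1a had 0 counts in the 16 libraries and Apoa1, Apoh, Ttr, Fgb, Ahsg and Alb reached at most 1.86 CPM, while Hp and Trf, which other cells also make, reached 271 and 35.3 CPM.

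**Figure D3:**
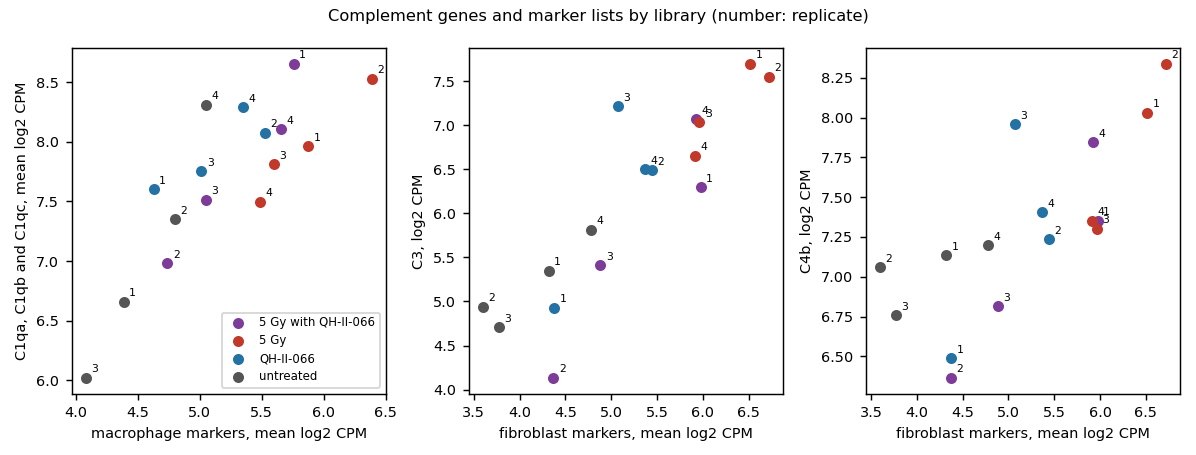
Mean log2 CPM of C1qa, C1qb and C1qc against the macrophage list, and log2 CPM of C3 and of C4b against the fibroblast list, 1 point per library coloured by group and numbered by replicate. The fibroblast list lies at 5.92 or above in the 4 libraries of the 5 Gy group and at 4.78 or below in the 4 untreated libraries.

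The 5 genes most like each of the other 6 members were likewise read over the 16 libraries. For C3 they included Ccdc80 (RMS difference 0.343), C1s1 (0.358), Steap4 (0.435) and Ggt5 (0.437), against an SD of the C3 profile of 1.06. For Serping1 they were C1s1 (0.177), Adgre1 (0.233), Tmem47 (0.240), Ms4a4d (0.241) and Tnfrsf21 (0.252), against an SD of 0.664. For C6 they were Clec10a (0.473), Scara3 (0.519), Cd55 (0.520), Cbr2 (0.595) and Cd209g (0.614), against an SD of 1.65. C1s1 and Cd55 are complement genes themselves: C1s1 encodes C1s, the partner protease of C1r, and Cd55 encodes an inhibitor of the C3 convertase. For Cfp they were Lsp1 (0.163), Ly6a (0.206), Tnfaip8l2 (0.221), Alox5ap (0.252) and Ly6e (0.264), against an SD of 0.742. For C4b they were Fmnl1 (0.184), Kitl (0.201), Ptk2b (0.212), Arrb1 (0.213) and Nckap1l (0.215), against an SD of 0.531. For C1ra they were Sp100 (0.162), Prcp (0.163), Trim30a (0.172), Grn (0.174) and Samhd1 (0.174), against an SD of only 0.328. Genes known from leukocytes stood among those most like several members: Lsp1 and Alox5ap for Cfp, Adgre1, a gene of the macrophage list, and Ms4a4d for Serping1, Clec10a and Cd209g, lectins of myeloid cells, for C6, and Fmnl1, Ptk2b and Nckap1l for C4b. Other genes of the lists are not named as leukocyte genes here, among them C1s1, the nearest, and Tmem47 for Serping1. The same holds for Scara3 for C6, Kitl for C4b and those given for C3. Both kinds stand beside members attributed to stroma, and which cells made the transcripts was not tested.

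Of 49 other complement symbols, 48 were in the table and 27 were tested. After 5 Gy against untreated, 2 of the 27 rose, where 1.25% of all tested genes did, and 0 fell. Above 0 were 21 of 27, as were 38.2% of all tested genes. The median log2 fold change was 0.77, and it was -0.08 over all tested genes. In edgeR 12 of 27 had an unadjusted p under 0.05, as had 15.1% of all tested genes. Cd55, which encodes a membrane inhibitor, measured 6.80, 17.8, 7.66 and 9.46 CPM after 5 Gy, against 0.468, 0.692, 0.672 and 2.11 CPM in untreated tumours, and rose by 3.40 ± 0.68 (adjusted p = 0.0331, edgeR); it has a near-identical copy, Cd55b, so its counts are uncertain. Colec12, which encodes a collectin of cell membranes, measured 12.2, 17.5, 8.88 and 7.12 CPM after 5 Gy, against 3.41, 4.69, 2.88 and 3.03 CPM in untreated tumours, and rose by 1.71 ± 0.38 (adjusted p = 0.0428). For both genes the groups were apart. Without the libraries with skin transcripts Cd55 was at 2.87 ± 0.58 (adjusted p = 0.111) and Colec12 at 1.59 ± 0.28 (adjusted p = 0.0817). Without the libraries with skin transcripts, or with skin or muscle markers as a covariate, edgeR called 0 of the other complement genes. The share of all genes called under these settings is not given here.

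C1s1 measured 52.1, 57.8, 36.2 and 28.2 CPM after 5 Gy, against 17.8, 13.5, 10.5 and 17.4 CPM in untreated tumours, and missed the threshold (1.56 ± 0.38, adjusted p = 0.0539). Cfb and Cfd, which encode the proteases of the alternative pathway, differed by 1.82 ± 0.69 (adjusted p = 0.193) and 2.63 ± 1.32 (adjusted p = 0.378). Cfd is also on the adipocyte list and reached 488 CPM in QH-II-066 replicate 3, the library with the highest adipocyte level, against 0.0769 CPM in untreated replicate 2. The receptor genes C5ar1 and C3ar1 differed by 0.97 ± 0.26 (adjusted p = 0.0691) and 0.77 ± 0.33 (adjusted p = 0.272). Near 0 were the inhibitors Cr1l (-0.04 ± 0.10) and Cd59a (0.07 ± 0.19). C2, the classical protease, was at -0.28 ± 0.15 (adjusted p = 0.420, edgeR) and the inhibitor Clu at 0.39 ± 0.35, and neither was called. DESeq2 called 8 of 27 higher after 5 Gy, beside its 7.34% of all genes. In the other 5 comparisons edgeR called 0 of 27 and 0% of all genes. DESeq2 called 1 of 27 higher in 5 Gy with QH-II-066 against untreated, where it called 1.2% of genes higher. Elsewhere DESeq2 called 0 of 27, beside 0.0995% to 0.765% of genes. An unadjusted p under 0.05 in edgeR was found for 6 of 27 in 5 Gy with QH-II-066 against untreated (16.2% of all genes), 5 of 27 in QH-II-066 against untreated (8.17%), 6 of 27 in 5 Gy with QH-II-066 against 5 Gy (19.5%), 1 of 27 against QH-II-066 (3.65%) and 8 of 27 for the interaction (6.96%). In 5 Gy with QH-II-066 against 5 Gy, 3 of 27 were above 0, as were 44.3% of all tested genes. The median there was -0.38, against -0.06 over all tested genes.

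**Figure D4:**
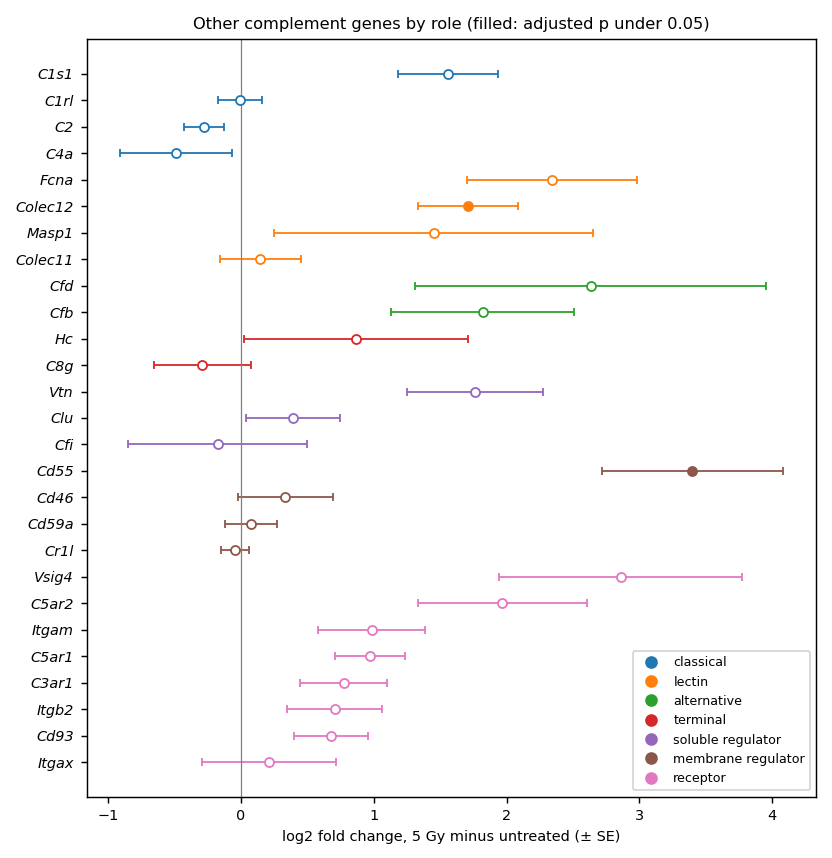
Log2 fold change with its SE of 27 other complement genes tested, 5 Gy minus untreated, in edgeR, coloured by role; a filled point has an adjusted p under 0.05. Colec12 and Cd55 are filled, and 21 of the 27 points lie above 0, as did 38.2% of all tested genes.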

How the data were processed

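RNA of 16 tumours was sequenced after transcriptome capture. Per the submitters' processing notes STAR 2.4.1a, featureCounts, edgeR and mm10 were used, and per the file headers featureCounts 1.6.0 counted read pairs over exons with no strand option, so overlapping or antisense genes cannot be told apart. The deposited values are raw counts of fragments per gene beside a gene length, which the authors left without normalization. Counts of the 16 libraries were fitted together in edgeR 4.0.16 (R 4.3.3, limma 3.58.1), 1 mean for each of 4 groups, after filterByExpr and TMM; the quasi-likelihood test (robust) covered 16101 of 46078 genes. Levels are TMM-scaled CPM, per kilobase where the abundance of members is compared, and log2 profiles use a prior count of 2. Differences from a marker list are in log2 CPM without scaling for length. Their size thus depends on gene length, and they serve to compare libraries and groups only. Pattern likeness was read over tested genes with a mean of at least 1 log2 CPM. The steps were tested on simulated data.

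The members, gene lists and tests were chosen with earlier results of these data known. The text names all 9 members, the other complement genes that passed in any comparison, others fixed by name (Cfb, Cfd, C1s1, C2, C3ar1, C5ar1, Cd55, Cd59a, Cr1l, Clu), and the 5 genes most like each profile; 1 gene under this rule is not reported here. Alternatives were RLE scaling, DESeq2 1.42.0, no filter, a stricter filter (1 CPM in 8 libraries), a fit of only the groups compared, a block for the replicate number, skin and muscle scores as covariates, leaving out the 5 libraries with skin transcripts, and leaving out each library.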

Additional observations from a re-analysis of the deposited data

Results flagged for a closer look

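In 36 groups of 4 libraries, 1 for each member and treatment group, the gap between an extreme library and its nearest neighbour was set against the group's range, and 2 groups passed Dixon's 95% critical value. Chance flags about 1 in 20 groups. Both were of C6, the rarest member: 5 Gy replicate 2 had 16.5 CPM, above 3.63, 5.16 and 3.36 CPM in the other 5 Gy libraries, and QH-II-066 replicate 2 had 3.17 CPM, above 1.15, 1.21 and 1.33 CPM in the other QH-II-066 libraries. The 5 Gy library also had the highest skin epithelium level of the 16 libraries, 7.62 log2 CPM, and the highest fibroblast and macrophage levels, 6.72 and 6.39 log2 CPM, whose part in the C6 value was not tested.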

How the results depend on the processing

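After 5 Gy against untreated, 1 member was called, C6. The count was 1 with RLE scaling and with the stricter filter, 2 in the compared groups alone and 3 in DESeq2, and 0 with no filter, with the replicate block, with the skin or the muscle score as a covariate and without the libraries with skin transcripts. C6 was then at 3.97 (adjusted p = 0.0607), 3.94 (0.0580), 3.21 (0.195), 3.60 (0.117) and 3.20 (0.0896) in edgeR. The last of these settings kept only replicates 1 and 3 of the 5 Gy group. There C3 was at 2.14 and Serping1 at 1.35, against 2.03 and 1.31 with all libraries. Of all genes, edgeR called 1.25% higher and DESeq2 7.34%. For the other settings that share is not given here, so fewer member calls cannot be told from fewer calls over all genes. Leaving out 1 library gave 0 to 2 calls. With the combined treatment against untreated DESeq2 called 1 member. In the other 4 comparisons 0 members were called under every setting run. The cause of these shifts was not tested. Same-numbered libraries had correlated deviations in 12 of 24 pairs (r over 0.1, median 0.099, range -0.426 to 0.484). The labels do not give the mouse, so whether the numbers share a mouse or batch is not known. The block is given as a setting alone.

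Directions turned in comparisons where no member was called. Without the libraries with skin transcripts, which leaves 1 combined library, combined against 5 Gy was 0.79 for C1qb, 0.51 for C1qc and 0.74 for Cfp, combined against QH-II-066 was 0.65 for C1qb, 0.16 for C1ra and 0.29 for Serping1, and the interaction was 0.31, 0.086 and 0.030 for C1qa, C1qb and C1qc. The skin covariate gave -0.052 for C4b against untreated and 0.019 for C1qb against QH-II-066, while C1qc against QH-II-066 was -0.029 with the muscle covariate and -0.030 with no filter. Leaving out 1 library, combined against 5 Gy ranged from -0.18 to 0.42 for C1qa, -0.48 to 0.15 for C1qb, -0.52 to 0.0080 for C1qc and -0.44 to 0.17 for Cfp. Against QH-II-066 it ranged from -0.27 to 0.33 for C1qa, -0.50 to 0.087 for C1qb, -0.28 to 0.21 for C1qc, -0.21 to 0.042 for C1ra, -0.46 to 0.10 for C4b, -0.076 to 1.44 for C6, -0.027 to 0.56 for Cfp and -0.30 to 0.12 for Serping1. Against untreated it ranged from -0.034 to 0.28 for C1ra and -0.15 to 0.34 for C4b. The untreated C6 counts of 5 to 28 limit the precision of its fold change.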
